A study of Mus musculus with 6 samples.

Results

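Tubulins and the enzymes that modify them were examined in whole-testis RNA sequencing of age-matched C57BL/6 mice, a standard inbred laboratory strain. Members were chosen by gene symbol: the alpha, beta, gamma, delta and epsilon tubulins, the tubulin tyrosine ligase-like (Ttll) and AGBL families, and Ttl, Hdac6 and Atat1. This gave 41 of the 24411 genes in the files, of which 38 passed a filter on low counts. The study compared 3 libraries labelled MRP5-/- and MRP9-/- with 3 labelled Wildtype, called labelled DKO and labelled WT here. MRP5 and MRP9 are ABC transporters of the multidrug resistance-associated family, encoded by Abcc5 and Abcc12, and the study's title places them in male reproduction and mitochondrial function. Neither the ages of the mice nor the design of the alleles is given in the sources used here. Each library is 1 deposited sample; the labels do not state that it is 1 animal, so the spread between libraries may be partly technical.

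Microtubules are hollow tubes built from dimers of alpha and beta tubulin. In the testis they form the spindles of dividing germ cells, the manchette that shapes the spermatid head, the axoneme of the sperm tail and the long columns of Sertoli cells, the somatic cells that nurse germ cells. Their surface carries the charged carboxy-terminal tails of tubulin, on which TTLL enzymes add chains of glutamate or glycine, cytosolic carboxypeptidases (the AGBL family) remove glutamates, and Ttl restores a terminal tyrosine. Atat1 acetylates a lysine of alpha tubulin inside the tube, and Hdac6 removes that acetyl group. Glutamylation and glycylation are abundant in sperm tails, and loss of several of these enzymes is known to impair sperm.

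Libraries held 26753721 to 67131103 expected counts, that is, sequenced fragments assigned to genes. The labelled DKO libraries were deeper and had longer mean fragments (275 to 317 bases) than the labelled WT libraries (230 to 258 bases), with no overlap, so genotype and fragment length cannot be told apart. Of the targeted genes, Abcc12 fell to 79.0 ± 5.56 CPM (TMM-normalized counts scaled to a common library size) in labelled DKO from 160 ± 3.93 CPM in labelled WT (SD, n = 3 each). Its log2 fold change was -1.02 (edgeR adjusted p = 0.000307). Abcc5 was not lower: it was 16.8 ± 0.190 against 11.4 ± 0.898 CPM (SD, n = 3 each; log2 fold change 0.56, edgeR adjusted p = 0.0225), so groups are named by their labels. Across 17110 tested genes, 10.8% passed the edgeR quasi-likelihood test at a Benjamini-Hochberg adjusted p under 0.05 (984 higher and 872 lower; on log2(TPM + 1) with limma, 279 higher and 456 lower), with a median log2 fold change of -0.0042. Passing that threshold is meant below by called, rose or fell. Testis markers fit the labelled tissue: elongating spermatid markers summed to 22821 to 27317 CPM, and epididymal markers to at most 0.159 CPM in any library, with Lcn5 and Lcn8 listed at 0.

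Levels of different genes were compared in TPM, RSEM's relative transcript abundance, which is scaled by transcript length. Expression was concentrated in 3 tubulins. Tubb4b, a beta tubulin typical of cilia and flagella, was highest, at 2191 ± 112 TPM in labelled DKO and 2497 ± 85.8 TPM in labelled WT (SD, n = 3 each). Tuba3a, a testis alpha tubulin, followed at 1484 ± 169 against 1916 ± 96.0 TPM, and its near twin Tuba3b at 1357 ± 172 against 1869 ± 75.8 TPM (SD, n = 3 each). The ranges of these last 2 genes overlapped between libraries, and in TPM Tuba3a was above Tuba3b within each of the 6 libraries. In CPM, which is not scaled by length, the ratio of Tuba3a to Tuba3b was 0.974, 0.992 and 0.973 in labelled WT. It was 1.04, 1.02 and 1.07 in labelled DKO. Together the 3 genes supplied 87.3 ± 0.609% of all alpha and beta tubulin TPM in labelled WT and 86.5 ± 0.813% in labelled DKO (SD, n = 3 each).

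The enzymes spanned a wide range of levels. The deglutamylase Agbl5 was highest among them, at a mean of 423 TPM over the 6 libraries, above the glutamylases Ttll13 (274 TPM) and Ttll9 (212 TPM) and the glycylase Ttll10 (198 TPM). Ttl, the tyrosine ligase, was very low at 0.625 TPM, as was the deglutamylase Agbl1 at 0.592 TPM. Atat1 (31.1 TPM) and Hdac6 (34.4 TPM), which write and erase tubulin acetylation, lay within each other's spread. At the bottom were 3 members that failed the filter. Tubb1 had 1, 2 and 4 counts in labelled DKO and 0, 2 and 1 in labelled WT, Tubb4a had 2, 3 and 5 against 5, 7 and 1, and the pseudogene Tubb2a-ps2 had 1, 0 and 0 against 0, 1 and 1. A count of 0 in labelled WT library 1 allows up to 3 counts, or 0.114 CPM, counting error only. These 3 genes entered no test.

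**Figure D1:**
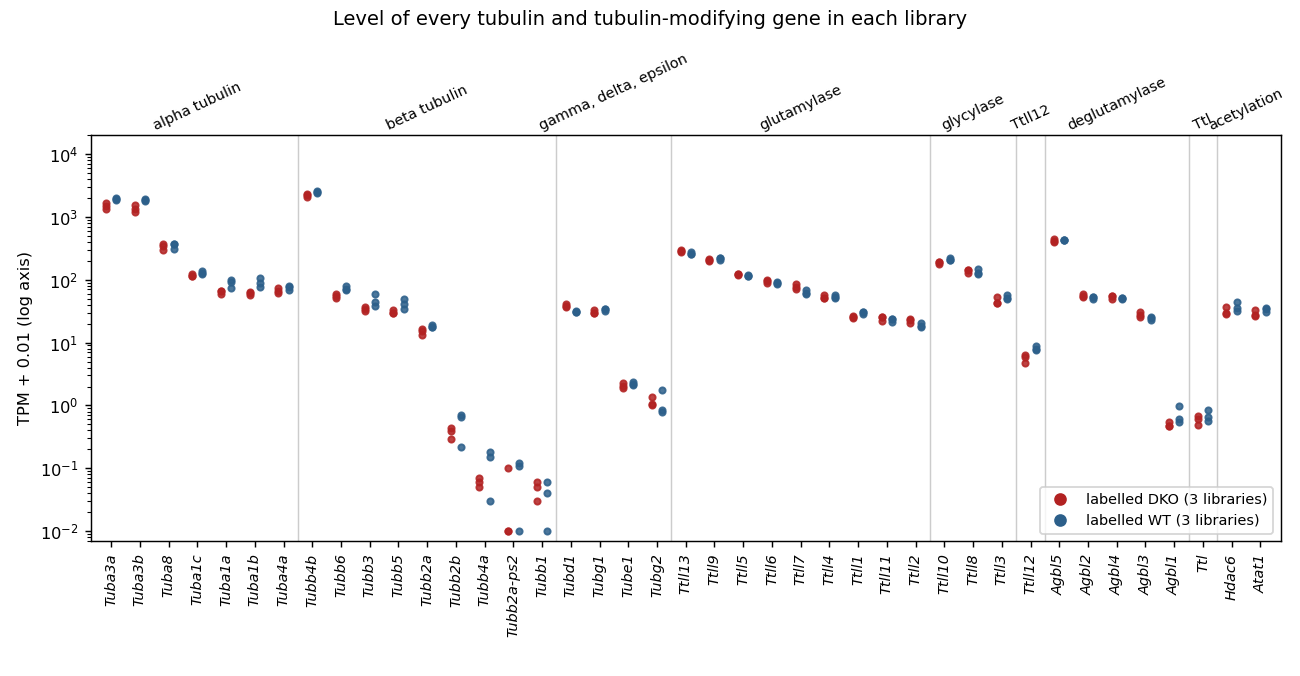
Level of all 41 members in each library, in TPM with 0.01 added, on a log axis; red points are the 3 labelled DKO libraries, blue points the 3 labelled WT libraries, and genes are grouped by role. Tubb4b, Tuba3a and Tuba3b stand above all other members in every library, while Ttl and Agbl1 lie below 1 TPM in every library.

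Of the 38 tested members, 9 (23.7%) passed the threshold against 10.8% of all tested genes: 8 fell and 1 rose in labelled DKO. The background was 5.1% lower and 5.75% higher. The calls were unevenly spread over roles. Among alpha and beta tubulins, 7 of 13 tested genes fell and none rose, and all 13 log2 fold changes lay below 0 (Tuba8 lay above 0 with either length offset, and Tubb2b with fragment length as a covariate), as did 50.7% of those of all tested genes. Among the 21 genes counted as enzymes, 1 was called, Ttll12, which fell. It was placed in none of the glutamylase, glycylase or deglutamylase classes here. Of the 4 gamma, delta and epsilon tubulins, Tubd1 rose. The median log2 fold change was -0.36 for alpha and beta tubulins, 0.15 for glutamylases and -0.10 for all members. In the edgeR fit with all libraries, 16 of the 38 members and 5428 of the 17110 tested genes had an unadjusted p under 0.05. The calls depended on single libraries. Without labelled DKO library 1, labelled WT library 2 or labelled WT library 3, 0 members passed in edgeR. Of all genes 0.0643%, 0.0747% and 0.0402% then passed. Without labelled DKO library 2, 5 members passed against 3.83% of all genes, without labelled DKO library 3, 9 against 17.7%, and without labelled WT library 1, 10 against 11.7%. With the mean fragment length as a covariate 0 members passed, and 0.00584% of all genes passed. DESeq2 called 10 members and 13.8% of all genes, and limma called 4 members and 4.3% on log2(TPM + 1) or 6 members and 5.53% on log2(TPM + 0.1). With size factors from DESeq2, with all counted genes kept, with a mean count minimum of 50, after thinning to the smallest total, and with offsets from effective length or the length trend, 8 or 9 members passed, against 11.1%, 11%, 14.0%, 11.3%, 9.71% and 10.3% of all genes.

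**Figure D2:**
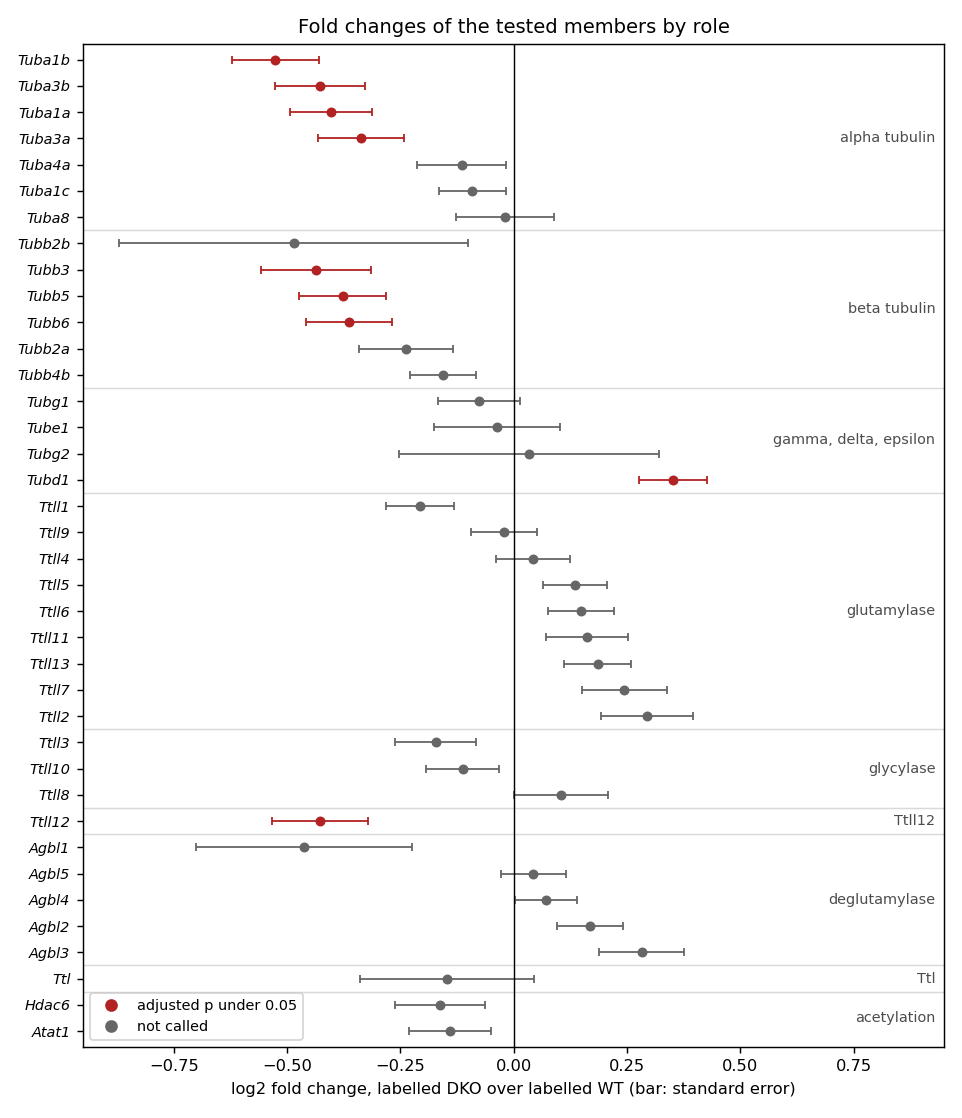
Log2 fold change of each tested member, labelled DKO over labelled WT, by role; points are estimates, bars are standard errors and red marks an edgeR adjusted p under 0.05. All 13 alpha and beta tubulins lie left of 0 in this fit (Tuba8 crosses 0 with a length offset), with Tuba1b at -0.53, while 7 of 9 glutamylases lie right of it (6 of 9 on the TPM scales, 5 of 9 with the fragment-length covariate).

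Several of the modifying enzymes act at the end of the alpha tubulin protein. The last 16 codons before the stop are shown for 5 of the 7 genes to compare the isotypes, with the final codon in capitals. They come from GENCODE M21 (GRCm38) transcripts that carry the files' RefSeq accessions, 5′ to 3′.
Tuba1c: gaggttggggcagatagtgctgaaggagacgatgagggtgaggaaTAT
Tuba3a: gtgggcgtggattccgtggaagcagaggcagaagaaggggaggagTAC
Tuba3b: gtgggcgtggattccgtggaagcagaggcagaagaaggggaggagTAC
Tuba4a: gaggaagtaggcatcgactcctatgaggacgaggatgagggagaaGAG
Tuba8: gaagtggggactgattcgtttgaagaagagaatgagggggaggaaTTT
The final codon was a tyrosine codon (TAC or TAT) in 5 of 7 genes, the residue that Ttl adds back after its removal. In Tuba4a it was GAG and in Tuba8 TTT. Codon 40, the place of the lysine that Atat1 acetylates, was AAG or AAA in 6 of 7 and GCC in Tuba8. Tuba3a and Tuba3b ended in the same 48 bases.

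Tuba3a and Tuba3b, the main alpha tubulins of the testis, both fell. Tuba3a lies on chromosome 6 at 125278270 to 125286081 and Tuba3b on the same chromosome at 145615963 to 145621477 (GRCm38.p6). Tuba3a had 1119, 1465 and 1232 CPM in labelled DKO libraries 1 to 3 and 1590, 1628 and 1601 CPM in labelled WT. All labelled DKO libraries were lower, with library 2 nearest to labelled WT. The log2 fold change was -0.34 (SE 0.0946; edgeR adjusted p = 0.0457), a fall of 20.8%. Tuba3b had 1074, 1432 and 1150 CPM in labelled DKO and 1633, 1640 and 1645 CPM in labelled WT. The labelled WT libraries were nearly equal, and the labelled DKO libraries were all lower and spread far more. The log2 fold change was -0.43 (SE 0.0998; edgeR adjusted p = 0.0328), a fall of 25.7%. With an offset from effective lengths, which allows for each library's fragment length, Tuba3a no longer passed (log2 fold change -0.32, edgeR adjusted p = 0.0524) while Tuba3b did (-0.41, 0.0367).

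Reads of such twins can be split wrongly, and the counts of both genes carried fractions. Their coding sequences differed at 41 of 1353 bases (97.0% identity), and 12.3% of the 100-base windows of the Tuba3a transcript occurred unchanged in Tuba3b, so most fragments could be told apart. The 100-base window is illustrative, since the read length is not given in the sources used here. The sum of both genes, which such splitting does not touch, was 2194, 2897 and 2382 CPM in labelled DKO and 3223, 3268 and 3247 CPM in labelled WT. The groups did not overlap (p = 0.1 by a two-sided exact permutation test; 3 against 3 libraries can give none smaller). Markers of elongating spermatids, the stage that builds the tail, summed to 22821, 27122 and 23861 CPM in labelled DKO and 27317, 23994 and 26327 CPM in labelled WT, which overlap. Of these 9 markers, 1 rose and 1 fell, against 5.75% and 5.1% of all tested genes. The part of these cells in the falls of Tuba3a and Tuba3b was not tested. In whole testis, fewer cells of a type and less RNA per cell cannot be told apart.

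The 250 bases before the annotated starts of Tuba3a and Tuba3b are shown from RefSeq (GRCm38.p6), 5′ to 3′ on the gene's strand. The letters CCAAT are in capitals (either strand searched, no overlap with another searched motif).
Tuba3a (chr6:125286082-125286331, minus strand): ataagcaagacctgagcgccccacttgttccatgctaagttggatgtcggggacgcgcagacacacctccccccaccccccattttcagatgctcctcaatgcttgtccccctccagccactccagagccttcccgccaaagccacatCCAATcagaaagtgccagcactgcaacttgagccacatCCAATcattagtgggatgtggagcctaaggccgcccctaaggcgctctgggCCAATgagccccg
Tuba3b (chr6:145615713-145615962, plus strand): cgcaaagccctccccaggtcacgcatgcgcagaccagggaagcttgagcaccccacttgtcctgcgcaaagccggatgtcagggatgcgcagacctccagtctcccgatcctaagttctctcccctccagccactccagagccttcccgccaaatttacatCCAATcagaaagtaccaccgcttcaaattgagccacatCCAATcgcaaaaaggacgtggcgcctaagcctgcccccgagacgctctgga
The window of Tuba3a held 3 such matches and that of Tuba3b 2. A match was present in 33.8% of the 32851 promoters in the table. Counted by gene, it was present for 37.5% of 27025 genes and for 18 of the 35 members listed there (51.4%). The cyclic AMP response element TGACGTCA was found in neither gene's window and in 1.55% of all promoters. Among other members that fell, Tuba1a and Tubb3 had 1 CCAAT match each, Tubb5 had 2, and Tuba1b and Ttll12 had 0. Tubb6 also fell but is not among the 35 members listed. Tubb4b, which was not called, had 5 matches. Whether such matches relate to the falls was not tested.

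Tuba1a, Tuba1b and Tuba1c are broadly expressed alpha tubulins that neighbour each other on chromosome 15, between 98931429 and 99038105. Tuba1b showed the largest fall of any called member. It had 51.5, 58.3 and 53.9 CPM in labelled DKO and 69.1, 89.6 and 76.9 CPM in labelled WT. The groups did not overlap, and labelled WT library 2 was highest (log2 fold change -0.53, SE 0.0960; edgeR adjusted p = 0.0237). Tuba1a had 54.6, 62.7 and 59.4 CPM in labelled DKO and 68.2, 84.3 and 81.2 CPM in labelled WT, again without overlap (log2 fold change -0.40, SE 0.0907; edgeR adjusted p = 0.0301). Tuba1c, the most abundant of the 3, was not called: it had 135, 151 and 133 CPM against 152, 150 and 144 CPM, and the groups overlapped (log2 fold change -0.09, SE 0.0733; edgeR adjusted p = 0.418). Whether Tuba1c differed from its neighbours was not tested. All 3 carried fractional counts, and 48.6% of the 100-base windows of Tuba1b occurred in Tuba1c, so how their reads were split is uncertain. Their sum was 253 ± 16.4 CPM in labelled DKO and 305 ± 17.5 CPM in labelled WT (SD, n = 3 each; exact permutation p = 0.1). Tuba1b also overlaps a long noncoding RNA gene, and strand handling is not given in the sources used here.

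Tuba8 and Tuba4a, the isotypes without a final tyrosine codon, were not called. Tuba8, known from testis and muscle, had 276, 310 and 232 CPM in labelled DKO and 301, 284 and 245 CPM in labelled WT. The groups overlapped fully (log2 fold change -0.02, SE 0.108; edgeR adjusted p = 0.919), and its sign turned with an offset for length, at 0.0016. Tuba4a had 81.3, 95.7 and 74.8 CPM against 99.2, 89.5 and 84.0 CPM (log2 fold change -0.11, SE 0.0979; edgeR adjusted p = 0.450).

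**Figure D3:**
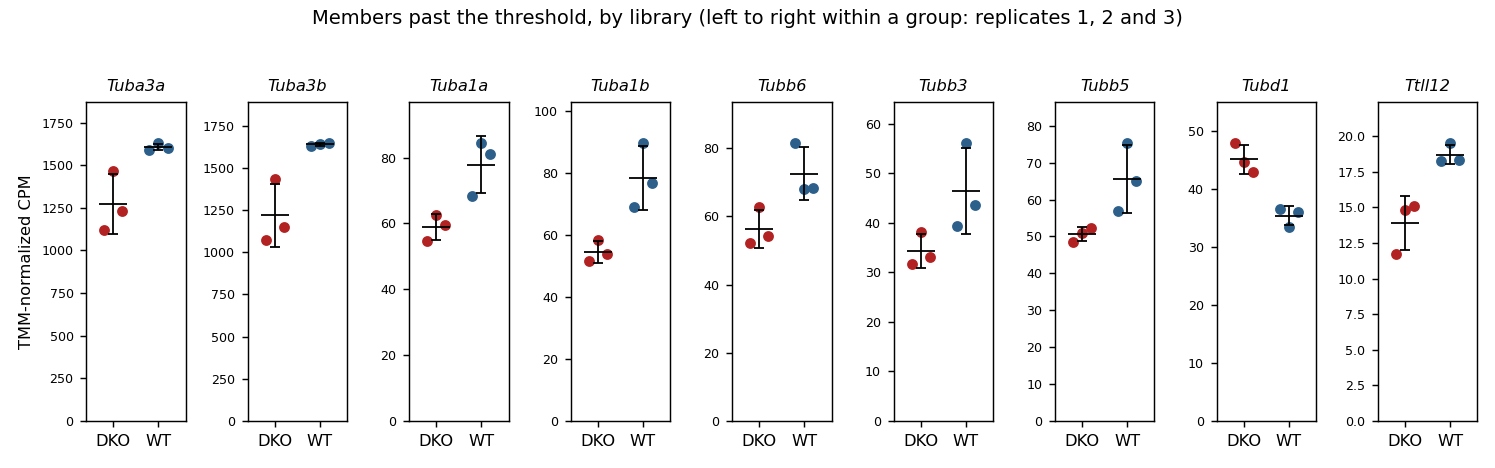
TMM-normalized CPM of the 9 members past the threshold, 1 panel a gene with its axis from 0; points are libraries, horizontal marks the group mean and bars the SD (n = 3). No panel shows overlap between the groups, but these genes were picked by the test between the same groups. Of all tested genes 35.9% had no overlap. Labelled WT library 2 is the highest point for Tuba3a, Tuba1a, Tuba1b, Tubb3, Tubb5 and Ttll12.

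Beta tubulins gave a similar picture, with the calls among the less abundant isotypes. Their coding ends, shown as above for 4 isotypes to compare the dominant one with the others, had no tyrosine codon in the last place.
Tubb4b: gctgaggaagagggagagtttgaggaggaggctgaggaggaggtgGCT
Tubb5: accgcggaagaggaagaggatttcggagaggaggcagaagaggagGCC
Tubb3: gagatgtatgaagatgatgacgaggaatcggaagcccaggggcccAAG
Tubb2a: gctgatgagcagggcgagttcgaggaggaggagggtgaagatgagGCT
The number of glutamate codons (GAA or GAG) among the 16 was 10 in Tubb4b, 9 in Tubb5, 8 in Tubb2a and 5 in Tubb3; glutamates are where TTLL chains attach. Tubb3, the class III isotype best known from neurons and also present in Sertoli cells, had 31.7, 38.1 and 33.1 CPM in labelled DKO and 39.3, 56.1 and 43.7 CPM in labelled WT. It fell without overlap (log2 fold change -0.44, SE 0.122; edgeR adjusted p = 0.0451), and without labelled WT library 2 the value was -0.28 (edgeR adjusted p = 0.151).

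Tubb5, a widely expressed isotype, had 48.6, 50.9 and 52.3 CPM in labelled DKO and 56.8, 75.2 and 64.9 CPM in labelled WT. It fell, with labelled WT library 2 again highest (log2 fold change -0.38, SE 0.0959; edgeR adjusted p = 0.0372). Tubb6, the class V isotype, had 52.3, 62.7 and 54.1 CPM in labelled DKO and 81.4, 68.0 and 68.2 CPM in labelled WT. It also fell, but with labelled WT library 1 highest (log2 fold change -0.36, SE 0.0946; edgeR adjusted p = 0.0384). Tubb4b, the dominant isotype, was not called although its groups did not overlap. It had 1893, 2125 and 2028 CPM in labelled DKO and 2251, 2232 and 2251 CPM in labelled WT (log2 fold change -0.16, SE 0.0725; edgeR adjusted p = 0.165). Tubb2a, at 12.2, 15.9 and 13.5 CPM against 16.5, 16.2 and 16.2 CPM, was not called either (log2 fold change -0.24; edgeR adjusted p = 0.143). Tubb2b, with 6.37 to 28.4 expected counts a library, was too low to judge (log2 fold change -0.49, SE 0.386; edgeR adjusted p = 0.414).

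Some markers of somatic cells also fell, as Tuba1a, Tuba1b and these beta tubulins did, against 5.1% of all tested genes called lower. The 10 Sertoli markers summed to 1034 to 1233 CPM in labelled DKO and 1207 to 1488 CPM in labelled WT, with 3 called lower. The 8 markers of Leydig cells, which make steroids, summed to 446 to 654 CPM against 630 to 1186 CPM, with 3 called lower. The 4 peritubular myoid markers summed to 112 to 126 CPM against 129 to 170 CPM, with 1 called lower, and the 4 macrophage markers to 20.1 to 23.9 against 18.6 to 35.8 CPM, with 0 called. The Sertoli, Leydig and macrophage sums overlapped between groups, and Wt1, Fshr, Hsd3b1 and Adgre1 had log2 fold changes above 0, none called. In each of these 4 lists labelled WT library 2 had the highest sum. Among the members that fell, that library was also highest for Tuba3a, Tuba1a, Tuba1b, Tubb3, Tubb5 and Ttll12, but not for Tuba3b or Tubb6. The part of somatic cells in the tubulin differences was not tested. The 10 spermatocyte markers summed to 2177 to 2775 CPM in labelled DKO and 1985 to 2213 CPM in labelled WT, which overlap. Of these markers 2 were called higher, against 5.75% of all tested genes. Piwil1 and Ccna1 had log2 fold changes below 0, neither called.

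Of the tubulins outside the alpha and beta pair, Tubd1 was the member that rose. Delta tubulin, its product, is needed for the triplet microtubules of centrioles and basal bodies. Tubd1 had 47.9, 44.6 and 43.0 CPM in labelled DKO and 36.6, 33.5 and 36.0 CPM in labelled WT. All labelled DKO libraries were higher (log2 fold change 0.35, SE 0.0752; edgeR adjusted p = 0.0272), a rise of 27.6%. Epsilon tubulin, encoded by Tube1, acts beside delta tubulin at centrioles; Tube1 had 3.83 ± 0.420 against 3.92 ± 0.318 CPM (SD, n = 3 each; log2 fold change -0.04, edgeR adjusted p = 0.879). Tubg1, which nucleates microtubules, had 28.8 ± 2.72 against 30.4 ± 2.12 CPM (SD, n = 3 each; log2 fold change -0.08, edgeR adjusted p = 0.590). Tubg2 was low, at 1.18 ± 0.234 against 1.14 ± 0.490 CPM (SD, n = 3 each; log2 fold change 0.03, edgeR adjusted p = 0.950). The counts of Tubg1 and Tubg2 carried fractions.

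None of the 9 glutamylases passed the threshold in edgeR with all libraries kept. Unadjusted p was under 0.05 for 4 of them (3 higher, 1 lower), and for 5428 of 17110 tested genes. Of their log2 fold changes, 7 of 9 lay above 0 (6 of 9 on the TPM scales and 5 of 9 with fragment length as a covariate). DESeq2 also called 0 of the 9. Without labelled DKO library 3 edgeR called Ttll2, and without labelled WT library 1 it called Ttll7. Ttll13, the most abundant, had 550, 553 and 539 CPM in labelled DKO and 520, 453 and 472 CPM in labelled WT, without overlap (log2 fold change 0.18, SE 0.0733; edgeR adjusted p = 0.110). Ttll5, known from sperm tail glutamylation, had 395, 392 and 382 CPM against 379, 335 and 351 CPM (log2 fold change 0.14; edgeR adjusted p = 0.217), also without overlap. Ttll9, another enzyme of the sperm tail, overlapped, at 199, 211 and 208 CPM against 226, 201 and 200 CPM (log2 fold change -0.02; edgeR adjusted p = 0.869). Ttll2, whose counts carried fractions, had the largest value of the class (log2 fold change 0.29, SE 0.101; edgeR adjusted p = 0.0763). Ttll1, the catalytic subunit of the tubulin polyglutamylase complex, had 30.6, 34.2 and 30.6 CPM in labelled DKO and 36.2, 36.1 and 37.7 CPM in labelled WT. Its labelled DKO values were lower without overlap (log2 fold change -0.21, SE 0.0756; edgeR adjusted p = 0.0884). Log2 fold changes of Ttll4, Ttll6, Ttll7 and Ttll11 ranged from 0.04 to 0.24. Groups did not overlap for 4 of 9 glutamylases (44.4%), against 35.9% of all tested genes.

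Glycylases did not pass either. Ttll3 and Ttll8 attach the first glycine to tubulin and Ttll10 lengthens the chain. Ttll10 had 251, 283 and 263 CPM in labelled DKO and 313, 269 and 278 CPM in labelled WT (log2 fold change -0.11, SE 0.0803; edgeR adjusted p = 0.359). Ttll8 had 267, 281 and 230 CPM against 277, 215 and 232 CPM (log2 fold change 0.10, SE 0.103; edgeR adjusted p = 0.523), and Ttll3, whose counts carried fractions, 78.8 ± 6.18 against 88.9 ± 9.47 CPM (SD, n = 3 each; log2 fold change -0.17, edgeR adjusted p = 0.212). All 3 overlapped between groups.

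Ttll12, a divergent member of the family, was placed in none of the glutamylase, glycylase or deglutamylase classes here. It was the only one of the 21 genes counted as enzymes that was called in edgeR with all libraries kept. It passed in 2 of the 6 fits that left out a library. It had 11.7, 14.8 and 15.1 CPM in labelled DKO and 18.3, 19.5 and 18.3 CPM in labelled WT. All labelled DKO libraries were lower (log2 fold change -0.43, SE 0.106; edgeR adjusted p = 0.0358), a fall of 25.6%. It is also the least abundant of the 13 Ttll genes, at 6.85 TPM. It overlaps a long noncoding RNA gene in the annotation.

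No deglutamylase passed in edgeR with all libraries kept, and log2 fold changes ran from -0.46 to 0.28. Unadjusted p was under 0.05 for 2 of 5, both higher, and for 5428 of 17110 tested genes. Agbl5, which removes the branching glutamate of a side chain, had 804, 852 and 844 CPM in labelled DKO and 847, 764 and 816 CPM in labelled WT (log2 fold change 0.04, SE 0.0713; edgeR adjusted p = 0.717). Agbl3 came nearest to the threshold, with 95.3, 84.1 and 81.6 CPM in labelled DKO and 79.5, 63.1 and 72.1 CPM in labelled WT (log2 fold change 0.28, SE 0.0944; edgeR adjusted p = 0.0701). DESeq2 called Agbl3, the member it added to the 9. In edgeR Agbl3 was called without labelled DKO library 3 and without labelled WT library 1. Agbl2 had 132, 124 and 116 CPM against 111, 107 and 114 CPM, higher without overlap but not called (log2 fold change 0.17; edgeR adjusted p = 0.137). Agbl4 (log2 fold change 0.07; edgeR adjusted p = 0.501) and the nearly silent Agbl1 (-0.46, SE 0.237; 0.203) did not pass.

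Enzymes of acetylation and tyrosination did not pass. Atat1 had 32.7 ± 3.26 CPM in labelled DKO and 36.1 ± 2.56 CPM in labelled WT (SD, n = 3 each). It did not pass (log2 fold change -0.14, SE 0.0902; edgeR adjusted p = 0.304). Hdac6 had 79.5, 78.4 and 95.2 CPM against 85.4, 107 and 91.5 CPM (log2 fold change -0.16, SE 0.10; edgeR adjusted p = 0.287). For both, labelled DKO library 3 lay inside the labelled WT range. Ttl had 1.83, 1.45 and 1.91 CPM against 1.63, 2.27 and 1.84 CPM (log2 fold change -0.15, SE 0.192; edgeR adjusted p = 0.633).

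Classes were next compared as pools. Summed alpha tubulin was 3162, 3895 and 3417 TPM in labelled DKO and 4350, 4759 and 4450 TPM in labelled WT. It was 22.8% lower in labelled DKO by the means, 3491 ± 372 against 4520 ± 214 TPM (SD, n = 3 each), without overlap. Without the members whose counts carry fractions, which here leaves Tuba8 alone, the log2 ratio was -0.05 in place of -0.37. Summed beta tubulin was 2326 ± 119 TPM in labelled DKO and 2678 ± 102 TPM in labelled WT (SD, n = 3 each), also without overlap. Summed glutamylases were level, at 912 ± 22.1 against 873 ± 27.0 TPM, as were deglutamylases, at 558 ± 20.5 against 554 ± 3.90 TPM (SD, n = 3 each), and both overlapped. Glycylases were 370 ± 9.70 against 395 ± 25.1 TPM (SD, n = 3 each), without overlap although the nearest libraries of each group both rounded to 379 TPM. Gamma, delta and epsilon tubulins were 72.4 ± 1.72 against 67.8 ± 1.76 TPM (SD, n = 3 each). Exact two-sided permutation tests gave p = 0.1 for the 4 sums without overlap, 0.2 for glutamylases and 1 for deglutamylases; adjusted over the 6 classes the smallest was 0.15, so no class could pass.

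Ratios within a library do not depend on its scaling. The classes differ in transcript length, with medians of 1605 bases for tested alpha and beta tubulins, 3085 for glutamylases and 2623 for all tested genes. Fragment length did not overlap between the groups, and its part in ratios between classes was not tested. The ratio of alpha to beta tubulin TPM was 1.44, 1.64 and 1.42 in labelled DKO and 1.68, 1.71 and 1.67 in labelled WT, so the nearest libraries lay close. Glutamylase TPM per 100 TPM of alpha and beta tubulin were 17.1, 14.2 and 16.0 in labelled DKO and 13.0, 11.4 and 12.0 in labelled WT. That ratio was higher without overlap in labelled DKO, with the tubulin denominator lower (exact permutation p = 0.1). The same ratio for deglutamylases was 9.62 ± 0.821 against 7.71 ± 0.370 (SD, n = 3 each), also without overlap, and for glycylases 6.38 ± 0.338 against 5.50 ± 0.548 (SD, n = 3 each), with overlap. These ratios were chosen after the values were seen.

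**Figure D4:**
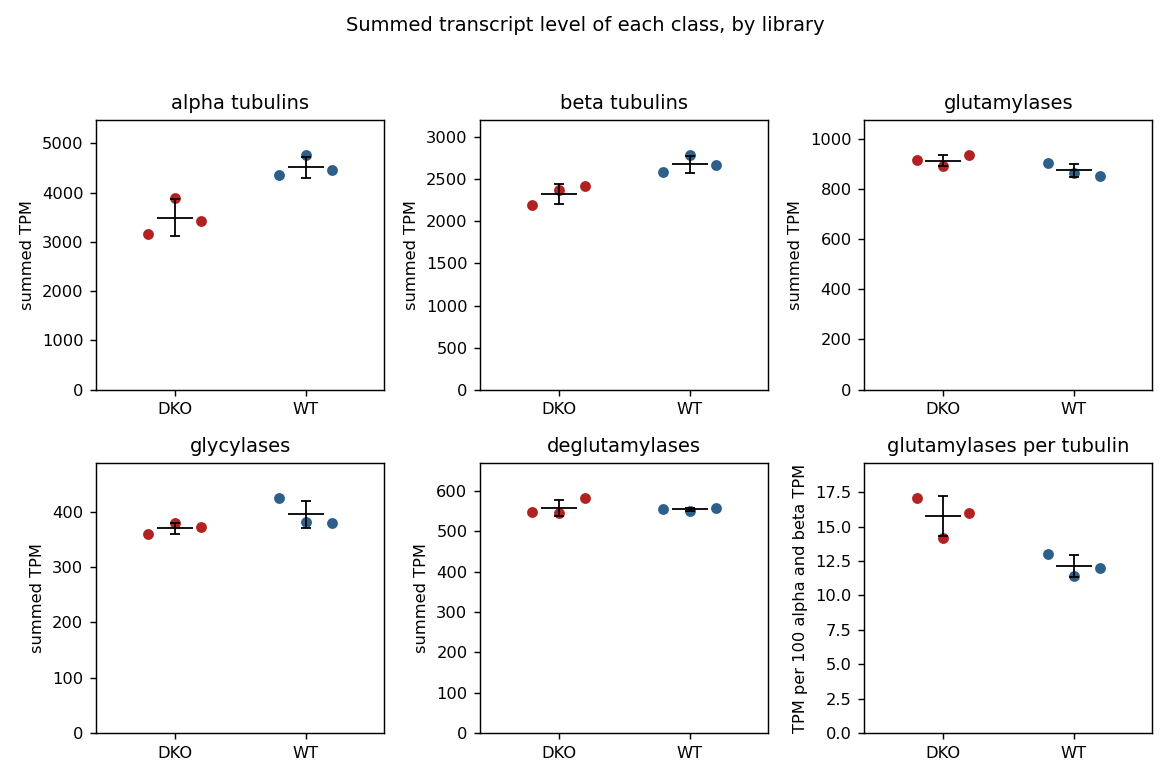
Summed TPM of 5 classes and, in the last panel, glutamylase TPM per 100 TPM of alpha and beta tubulin, by library; points are libraries, horizontal marks group means and bars the SD (n = 3), all axes from 0. Alpha and beta tubulin sums separate the groups, while glutamylase and deglutamylase sums overlap.

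The mix of isotypes shifted little. Tuba3a held 42.5 ± 0.952% of alpha tubulin TPM in labelled DKO and 42.4 ± 0.326% in labelled WT (SD, n = 3 each). Tuba3b held 38.8 ± 0.775% against 41.4 ± 0.538% (SD, n = 3 each), lower without overlap. The shares of Tuba8 (9.76 ± 1.13% against 7.77 ± 0.754%), Tuba1c (3.39 ± 0.222% against 2.86 ± 0.0671%) and Tuba4a (1.94 ± 0.123% against 1.68 ± 0.136%) were higher in labelled DKO without overlap (SD, n = 3 each), although the nearest libraries for Tuba4a both rounded to 1.83%. Genes ending in a tyrosine codon supplied 88.3 ± 1.25% of alpha tubulin TPM in labelled DKO and 90.6 ± 0.882% in labelled WT (SD, n = 3 each). Tubb4b held 94.2 ± 0.175% of beta tubulin TPM against 93.3 ± 0.393%, and Tubb6 held 2.37 ± 0.116% against 2.72 ± 0.283% (SD, n = 3 each). For each isotype share without overlap the exact permutation p was 0.1, or 0.267 adjusted over the 16 shares. The tyrosine-codon share was chosen after the values were seen.

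The length column gives the abundance-weighted transcript length of a gene and so reflects its estimated mix of transcripts. It varied between libraries for 9 tested members with several transcripts. Ttll7, a glutamylase known from neurons, differed most: 2944, 3023 and 2991 bases in labelled DKO and 3170, 3202 and 3180 bases in labelled WT. All labelled DKO values were shorter, by 198 bases on average. Agbl4 was also shorter without overlap, at 1789 ± 11.4 against 1827 ± 17.0 bases (SD, n = 3 each). Hdac6 and Tubd1 did not overlap either but differed by less than 8 bases. The exact two-sided permutation p was 0.1 for these 4 and 0.225 adjusted over the 9. Fragment length, which enters these estimates, did not overlap between the groups either, and its part in them was not tested.

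Other microtubule genes were taken from 5 lists with 79 genes, of which 74 were tested; 16 were called (21.6%), 9 higher and 7 lower, against 10.8% of all tested genes. In tubulin folding, 9 of 26 genes were called, 4 higher and 5 lower. New tubulin passes from prefoldin to the CCT chaperonin and then to the cofactors Tbca to Tbce. The prefoldin subunits Pfdn2 and Pfdn5 fell (log2 fold changes -0.64 and -0.55; edgeR adjusted p = 0.0253 and 0.0289). Tbcc, the cofactor that triggers GTP hydrolysis on tubulin, fell from 81.8 ± 1.42 to 58.7 ± 6.14 CPM (SD, n = 3 each; log2 fold change -0.48, edgeR adjusted p = 0.0231). Arl2, a small GTPase that works with the cofactors, and Pdcl3, a phosducin-like chaperone partner, also fell (log2 fold changes -0.57 and -0.62; edgeR adjusted p = 0.0253 and 0.0272).

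Pdcl2, a phosducin-like gene of male germ cells, rose from 370 ± 34.1 to 533 ± 57.6 CPM (SD, n = 3 each; log2 fold change 0.53, edgeR adjusted p = 0.0237). The chaperonin subunits Tcp1 and Cct6a and the cochaperone Txndc9 rose as well (log2 fold changes 0.29, 0.28 and 0.31; edgeR adjusted p = 0.0377, 0.0384 and 0.0410); these 3 lie beyond the naming rule and were added after their values were seen. The transcripts of Pfdn2 and Pfdn5 are short, at 622 and 678 bases. With the effective-length offset their log2 fold changes were -0.48 and -0.41 (edgeR adjusted p = 0.0358 and 0.0469). The cofactor Tbca, with a transcript of 503 bases, was not called without that offset (log2 fold change 0.10, edgeR adjusted p = 0.419). With the offset it passed as higher (0.34, edgeR adjusted p = 0.0469).

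Among partners of the modifying enzymes and modifying enzymes outside the symbol rule, 1 of 11 was called (9.09%), against 10.8% of all tested genes. The called gene was Agtpbp1, a deglutamylase of the same family as the Agbl genes, whose loss in mice makes males infertile. It rose from 238 ± 16.8 to 291 ± 11.2 CPM (SD, n = 3 each; the log2 fold change was 0.29, its SE 0.0750 and the edgeR adjusted p 0.0377). Of Ttll1's partners in the polyglutamylase complex none was called in edgeR: log2 fold changes were -0.22 for Tpgs1, 0.12 for Lrrc49, 0.06 for Tpgs2 and 0.04 for Nicn1.

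The gamma-tubulin ring complex, which seeds new microtubules, had 0 of 9 genes called in edgeR, with or without the effective-length offset. Of all tested genes 10.8% were called, and 9.71% with that offset. Nedd1, Tubgcp4 and Mzt1 had an unadjusted p under 0.05 in edgeR, with log2 fold changes of 0.27, 0.23 and 0.20. So did 5428 of 17110 tested genes have an unadjusted p under 0.05. Among microtubule-severing genes, 2 of 7 rose (28.6%), against 5.75% of all tested genes called higher. They were Fignl1 (log2 fold change 0.35, edgeR adjusted p = 0.0392) and Katnbl1, a katanin relative (0.49, edgeR adjusted p = 0.0457). Among genes of microtubule binding and growth, 4 of 21 were called (19.0%), against 10.8% of all tested genes. Mapre1, which tracks growing ends, and Stmn1, which sequesters tubulin dimers, rose (log2 fold changes 0.31 and 0.29; edgeR adjusted p = 0.0346 and 0.0401). Map1lc3a and Map1lc3b, light chain 3 proteins best known from autophagy, fell (-0.32 and -0.35; 0.0381 and 0.0267). With the effective-length offset Map1lc3a no longer passed (-0.27; edgeR adjusted p = 0.0591).

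**Figure D5:**
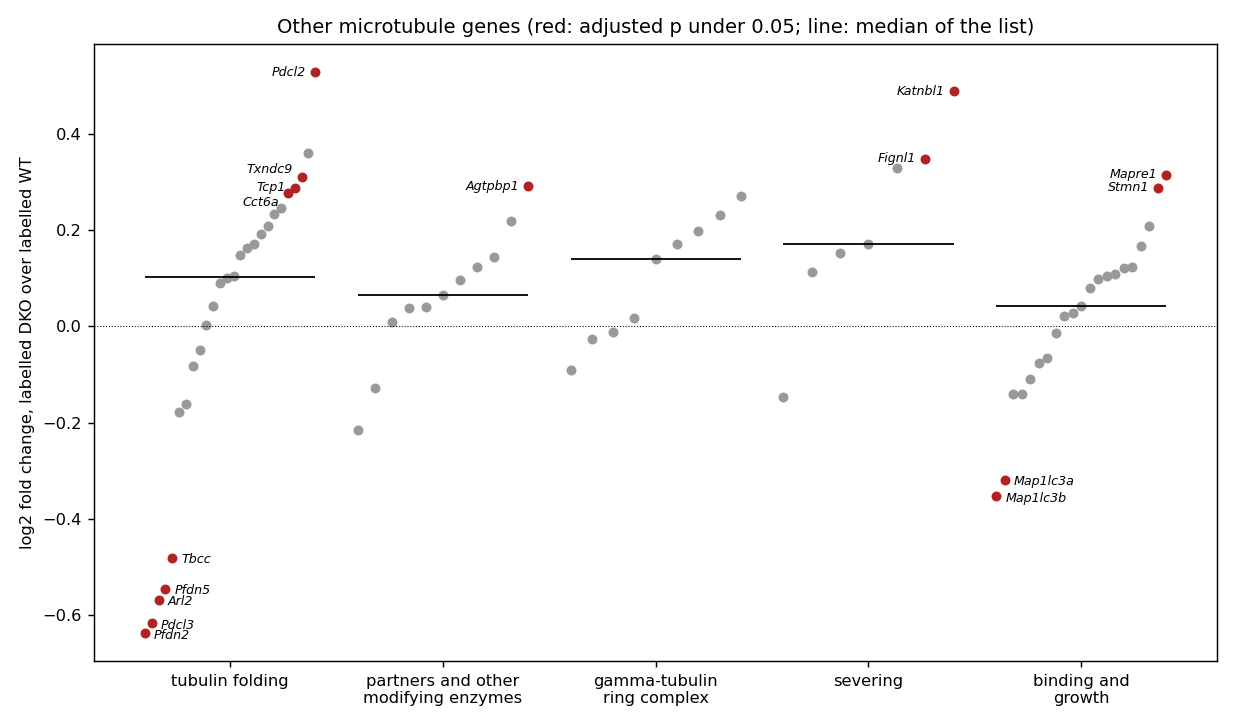
Log2 fold change (labelled DKO over labelled WT) of 74 tested microtubule genes outside the tubulin and enzyme families, in 5 lists; red points have an edgeR adjusted p under 0.05 and are named, and the line is the list's median. Calls lie on both sides of 0 in tubulin folding, from Pfdn2 at -0.64 to Pdcl2 at 0.53.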

How the data were processed

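Whole-testis RNA was sequenced in 3 labelled DKO and 3 labelled WT libraries; groups come from the genotype label, and replicates, numbered in accession order, are not paired. The authors deposited 1 RSEM gene table per library. The submitters' processing notes name STAR 2.7.0f, RSEM 1.2.31, DESeq2 1.12.3 and mm10; strand handling is not given in the sources used here. Expected counts, per the file headers, are the fragments RSEM assigned to a gene (93.2% of values whole within 0.001). TPM, per the file headers, is scaled by effective length; deposited FPKM was not used. The deposited length columns are in bases; mean fragment length was derived from the gap between length and effective length in genes above 3000 bases.

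Counts were rounded, filtered with filterByExpr, scaled by TMM and tested with the edgeR 4.0.16 quasi-likelihood test on genotype, adjusted by Benjamini-Hochberg over 17110 genes; a call is an adjusted p under 0.05. The SE is the absolute log2 fold change over the square root of F. CPM is TMM-normalized. Alternatives are in the closing section (limma 3.58.1, DESeq2 1.42.0, mgcv 1.9.3). Members, lists and tests were chosen with earlier results of these data known. Genes were named by rule: called members, the 3 most abundant of each of 6 classes, Ttl, Hdac6 and Atat1, members that were filtered out or carry fractional counts, and up to 6 called genes of each other list; further members are given for completeness, and Nedd1, Tubgcp4, Mzt1, Tpgs1, Tpgs2, Lrrc49, Nicn1, Tcp1, Cct6a and Txndc9 were named after their values were seen. Tbca was also named after its values were seen. All 41 symbols matched RefSeq (GRCm38.p6), and 35 had a promoter sequence. By annotation 20 members overlap another gene. No libraries were duplicates: the closest pair had a chi-square of 6.36 per degree of freedom. Some coding sequence ends are not reported here.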

Additional observations from a re-analysis of the deposited data

How the results depend on the processing

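The number of calls varied with the libraries kept. When each of the 6 libraries was left out in turn, members called ranged from 0 to 10, all genes called from 7 to 3029, other microtubule genes called from 0 to 18 and the members' median log2 fold change from -0.14 to -0.0470. The fits without labelled DKO library 1, labelled WT library 2 and labelled WT library 3 called 0 members, and the fit without labelled DKO library 2 called 5. Without labelled DKO library 3 edgeR also called Agbl3 and Ttll2, and without labelled WT library 1 Agbl3 and Ttll7. With limma on log2(TPM + 1) 4 members and 735 genes were called, with log2(TPM + 0.1) 6 members and 947 genes (member median -0.15), with DESeq2 10 members and 2921 genes, and with fragment length as a covariate 0 members and 1 gene. Of all called genes 984 of 1856 were higher, against 279 of 735 on log2(TPM + 1). DESeq2 size factors, both count filters, both length offsets and thinning to the smallest total gave 8 or 9 members. Members passing in 9 of 10 settings that kept all libraries were Tuba1b, Tuba3b, Tubb6 and Tubd1.

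Members not called changed sign under some settings: Agbl5 on both TPM scales (-0.0218 and -0.0219), Tuba8 with the length offsets (0.0016 and 0.0229), Ttll9 with the length-trend offset (0.0036), Tubg2 after thinning (-0.25), and, with the fragment-length covariate, Agbl2 (-0.0177), Agbl4 (-0.0117), Hdac6 (0.19), Ttl (0.0781), Ttll8 (-0.21) and Tubb2b (0.52). Ttll4 (both TPM scales and the length-trend offset) and Ttll7 and Ttll11 (covariate) also turned below 0. Leaving out 1 library gave -0.13 to 0.0841 for Tuba8, -0.13 to 0.0490 for Tube1, -0.0553 to 0.0204 for Ttll9, -0.15 to 0.45 for Tubg2 and -0.0043 to 0.0617 for Agbl5. Log2 ratios of summed TPM ranged over these fits from -0.46 to -0.31 (alpha), -0.23 to -0.16 (beta), 0.0736 to 0.11 (gamma, delta and epsilon), 0.0463 to 0.0889 (glutamylases), -0.12 to -0.0394 (glycylases) and -0.0212 to 0.0264 (deglutamylases). From TMM-scaled counts per kilobase they were 0.14 (gamma, delta and epsilon), 0.12 (glutamylases) and 0.0671 (deglutamylases); without members with fractional counts they were -0.0477 (alpha) and 0.28 (gamma, delta and epsilon). With 1 library left out, the labelled DKO minus labelled WT difference in share ranged from -0.40 to 0.55 percentage points for Tuba3a and from -0.19 to 0.0019 for Tuba1a. The cause of these differences was not tested. No paired analysis was possible because the labels give no shared replicate numbers. Depth limits Tubb2b, Tubg2, Ttl and Agbl1, each near or under 2 CPM.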
